A study of Mus musculus with 8 samples.

Results

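Integrin subunit transcripts were followed in activated muscle stem cells (ASCs) of wild-type mice and of mice labelled mfn2-/-, with a conditional deletion of the mitochondrial fusion gene Mfn2. The genes described were the rows of the expression table with the symbols Itga1, Itga3, Itga5, Itga6, Itga11, Itgav, Itgb1, Itgb3, Itgb5 and Itgbl1. All 10 symbols were present among the 18877 in the table, and all 10 passed the filter on low values, a mean of at least 10 normalized reads over the 8 libraries. The rule took the genes by symbol and applied no threshold to their values. The symbols were, however, chosen with earlier results of these data known.

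The study compared total RNA of 4 wild-type and 4 mfn2-/- libraries of mouse ASCs. Mice of both groups carried the mito-Dendra2 allele, a green fluorescent protein sent to mitochondria, under a Pax7-Cre(ERT2) driver. The driver acts in cells that express Pax7 when tamoxifen is given, and in their progeny. By design the Mfn2 deletion and the Dendra2 label are thus meant for that lineage, which was not tested in these libraries. All mice received tamoxifen at 75 mg/kg once a day for 5 days and, 2 days after the last dose, 50 uL of 1.2% BaCl2 in the tibialis anterior muscle, which injures the fibers. Cells were sorted 2 days after injury as Dendra2+ and negative for CD34 and DAPI. The labels give no age or sex. They do not say whether each library of a group came from a separate animal. The p-values thus measure only the spread between these libraries, which may be in part technical.

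Integrins are cell surface receptors made of an alpha and a beta subunit. The pair sets the ligand, and the beta subunit's tail recruits talin and kindlin, which couple the receptor to actin. Beta 1 is the shared partner of most alpha subunits. It forms collagen receptors with alpha 1, alpha 2, alpha 10 and alpha 11, laminin receptors with alpha 3, alpha 6 and alpha 7, and fibronectin receptors with alpha 5 and alpha v. Alpha v also pairs with beta 3 and beta 5, which bind vitronectin and other proteins with an RGD motif. In muscle, integrins of the beta 1 family anchor the stem cell to the basal lamina of the fiber. Itgbl1 encodes a secreted protein with repeats like those of a beta subunit and is not known as a receptor subunit.

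Values are normalized reads, that is the reads of a gene divided by a size factor of its library. The libraries held 1880464 to 7508215 reads, so that 1 read was worth 0.534 to 2.27 normalized reads. The SDs given below are from the spread between libraries. The limma SEs combine that spread with a prior variance fitted over all genes. mfn2-/- replicate 4 stood apart, with reads in 9646 genes. The targeted gene, Mfn2, averaged 229 ± 19.98 normalized reads in the wild type and 126 ± 31.4 (SD, n = 4 each) in mfn2-/- libraries, lower in each mfn2-/- library than in any wild-type library (log2 change -0.88, limma adjusted p = 0.0848). Reads of Y-linked genes were present in replicates 3 and 4 of the wild type and in replicates 1 and 2 of mfn2-/- ASCs. They were absent from the other 4 libraries, so each group held material of more than 1 animal. The change of each of the 10 genes is therefore also given within either kind of library. The stem cell label was looked at on its markers. Of 8 listed, limma called Myod1, Sdc4 and Des higher in mfn2-/- libraries, with log2 changes of 2.32, 2.08 and 1.91. Markers of connective tissue cells were far lower in mfn2-/- libraries, as given below, so the 2 groups were not alike in all markers. Pax7 and Myf5 were not called. Pax7, the marker that drives the Cre, ranged from 629.6 to 730.0 normalized reads in the wild type and from 582 to 803 in mfn2-/- libraries, and Myf5 from 183 to 225 and from 176 to 258.

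Itgb1, Itgb5, Itga11 and Itgbl1 fell in mfn2-/- ASCs. Their group means were 1.59-fold lower for Itgb1, 4.62-fold for Itgb5, 36.6-fold for Itga11 and 86.9-fold for Itgbl1. These 4 of 10 genes were called lower and 0 were called higher by limma (adjusted p under 0.05 over 11754 genes), where 10.4% of all genes were called, 6.36% lower and 3.99% higher. The 10 genes' log2 changes had a median of -1.34, with 9 negative and 1 positive, beside a median of -0.16 over all genes tested. Since the 10 genes were chosen with earlier results of these data known, these shares and medians are descriptions only. The all-gene median moved to -0.11 with equal totals, 0.04 with upper quartile scaling and 0.13 with quantile normalization, and Itga5, close to no change, turned positive under upper quartile scaling. For 6 of 10 genes every mfn2-/- library lay below every wild-type library, which held for 12.2% of all genes, and each of these had an unadjusted exact two-sided permutation p = 0.0286, the smallest that 4 against 4 libraries allow. The 10 genes together took up 0.167% ± 0.019 of normalized reads in the wild type and 0.0885% ± 0.011 (SD, n = 4 each) in mfn2-/- libraries. Without mfn2-/- replicate 4, limma called the same 4 genes lower, against 7.13% of 11808 genes. By edgeR on the recovered reads 3 of the 10 genes were called lower (5.59% of all genes were), and by DESeq2 4 were (9.27% of all genes). Itgb5, Itga11 and Itgbl1 were called by both tools. In bulk RNA, fewer cells of a type and less RNA per cell cannot be told apart.

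**Figure D1:**
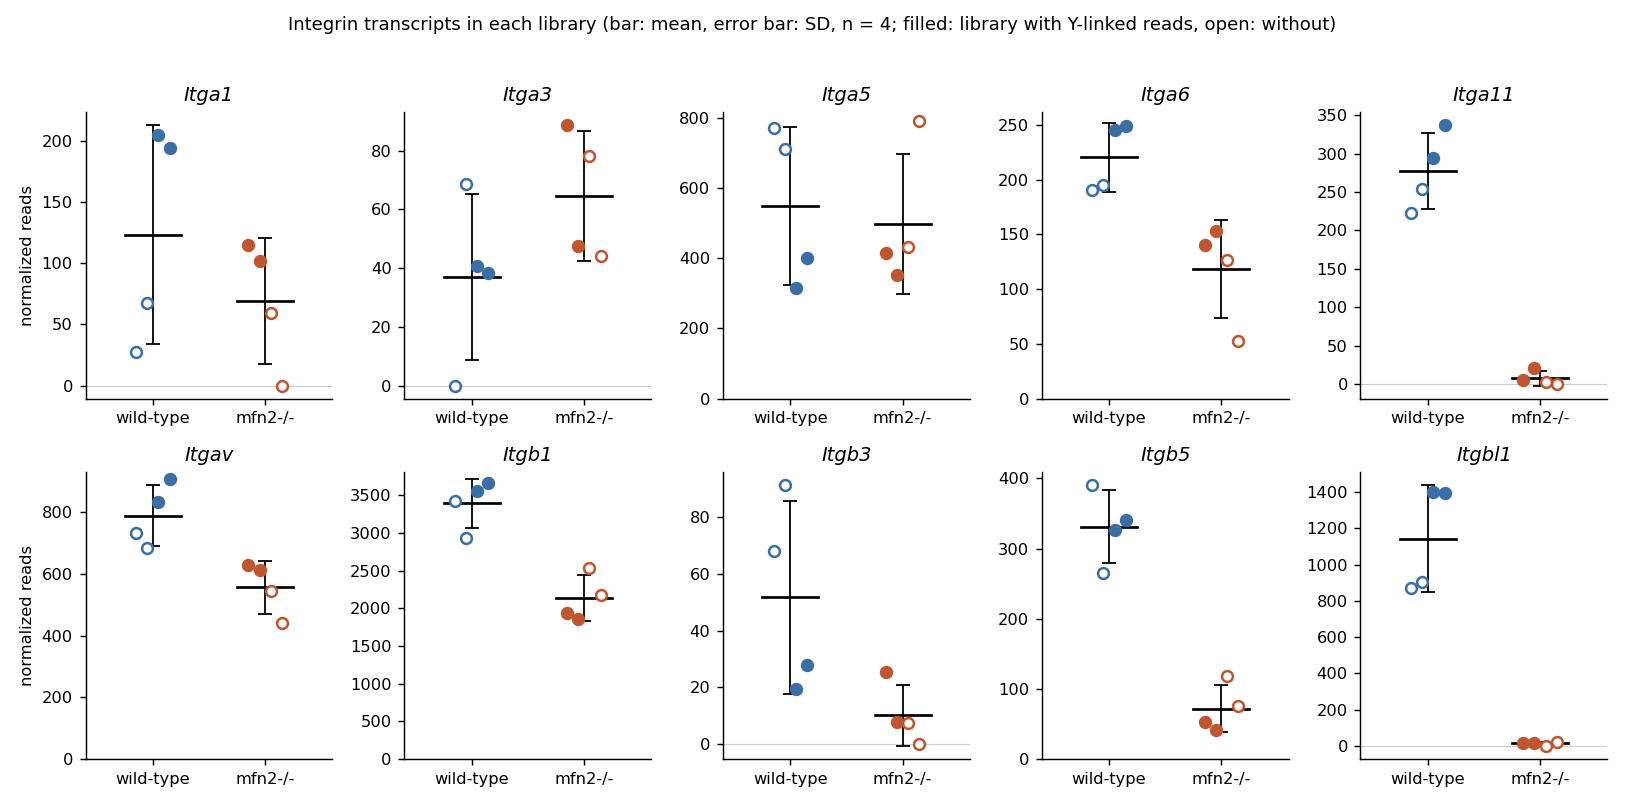
Normalized reads of the 10 genes (vertical axis of each panel, linear from 0) in the 4 wild-type and 4 mfn2-/- libraries, 1 point per library, filled where Y-linked genes had reads, with the group mean as a bar and the SD as an error bar. The groups are separate for Itgb1, Itgb5, Itga6, Itgav, Itga11 and Itgbl1 and overlap for Itga1, Itga3, Itga5 and Itgb3.

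Itgb1, the shared beta 1 chain, was the most abundant of the 10 genes. It held 3420.5, 2932, 3553 and 3655 normalized reads in wild-type replicates 1 to 4 and 1942, 1859, 2538 and 2181 in mfn2-/- replicates 1 to 4. The lowest wild-type library was above the highest mfn2-/- library, and the means were 3390.0 ± 320.2 and 2130.0 ± 304 (SD, n = 4 each). On the log2 scale the change was -0.68 (SE 0.17, limma adjusted p = 0.0256), and it was -0.92 among libraries with Y-linked reads and -0.43 among those without. The call was lost under 7 of 21 alternative settings. It was lost with upper quartile scaling (-0.47, adjusted p = 0.0969), with edgeR (-0.60, adjusted p = 0.0690) and in limma without an intensity trend (adjusted p = 0.159). It was also lost in limma without wild-type replicate 3 (adjusted p = 0.0803), wild-type replicate 4 (0.0799), mfn2-/- replicate 1 (0.0711) or mfn2-/- replicate 2 (0.0794), and kept without mfn2-/- replicate 4 (-0.69, adjusted p = 0.0313).

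Itgb5, the beta 5 chain of the vitronectin receptor alpha v beta 5, held 391, 265, 327 and 341 normalized reads in the wild-type libraries and 52.7, 41.1, 118 and 75.1 in the mfn2-/- libraries. All mfn2-/- values lay well under the lowest wild-type value. Its change on the log2 scale was -2.29 (SE 0.38, limma adjusted p = 0.00187), -2.82 with and -1.77 without Y-linked reads, and it was called under 21 of 21 alternative settings. Itgb3, the beta 3 chain, was scarce. It held 68.2, 91.3, 19.6 and 27.8 normalized reads in the wild type and 25.3, 7.90, 7.37 and 0 in mfn2-/- libraries. The ranges overlapped, and the difference of -2.73 (SE 1.17) did not pass the test (limma adjusted p = 0.168, exact permutation p = 0.0571). It differed in size between the libraries with Y-linked reads (-0.67) and those without (-4.79), and this contrast was not tested.

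Among the collagen receptor chains, Itga11 was well expressed in the wild type, at 223, 254, 295 and 337 normalized reads. In mfn2-/- libraries it was at 6.0, 21.3, 2.95 and 0, which were 9, 27, 4 and 0 reads. Alpha 11 is the chain of fibroblast-like cells for fibrillar collagen. The means of 277 ± 49.6 and 7.57 ± 9.5 (SD, n = 4 each) gave a change of -5.79 on the log2 scale (SE 0.93, limma adjusted p = 0.00148), which was called under 21 of 21 alternatives and was -5.01 (adjusted p = 0.000157) without mfn2-/- replicate 4. It was -6.51 without mfn2-/- replicate 2, the library with the most reads of the gene. Within kinds it was -4.66 with and -6.91 without Y-linked reads. Itga1, whose alpha 1 chain binds collagen IV, held 27.3, 67.4, 205 and 194 normalized reads in the wild type and 114.7, 101.9, 59.7 and 0 in mfn2-/- libraries. The ranges overlapped, with wild-type replicates 3 and 4 above and mfn2-/- replicate 4 below all libraries of the other group. Its difference of -1.69 (SE 1.32, limma adjusted p = 0.467), -0.88 with and -2.50 without Y-linked reads, rested on the 1 library at 0, and without mfn2-/- replicate 4 it was -0.07 (adjusted p = 0.963). Itga1 shares 685 exon bases with Gm49395, a gene on the same strand, so some of its reads may belong to that gene. The remaining collagen receptor chains, Itga2 and Itga10, were also lower in mfn2-/- ASCs, with log2 changes of -4.50 (limma adjusted p = 0.0252) and -3.30 (limma adjusted p = 0.0459). Itga2 averaged 49.6 and Itga10 108 normalized reads in the wild type, and Itga2 had 4 reads or fewer in each mfn2-/- library. Both calls were less stable than that of Itga11. Itga2 was called under 13 of 20 alternatives. Its call was lost without mfn2-/- replicate 1 (limma adjusted p = 0.0687) or 3 (0.0519) or wild-type replicate 3 (0.0841) or 4 (0.0854). It was also lost in limma with no filter (adjusted p = 0.0698), a pseudocount of 0.1 (0.0606) or a term for replicate number (0.0652). Itga10 was called under 8 of 21 alternatives. It was not called by edgeR (adjusted p = 0.0768), and of the fits without 1 library limma called it only in that without mfn2-/- replicate 4 (-4.08, adjusted p = 0.00425, against 0.0667 to 0.145 in the other 7). Of the 4 collagen receptor alpha chains limma thus called 3 lower, beside 6.36% of all genes.

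Of the laminin receptor chains Itga3, Itga6 and Itga7, limma called none. Itga6, the alpha 6 chain, held 191, 195, 246 and 249 normalized reads in the wild type and 141, 153, 127 and 53.1 in mfn2-/- libraries. The groups did not overlap, yet the difference of -0.99 (SE 0.38), -0.75 with and -1.22 without Y-linked reads, did not pass the test over all genes (limma adjusted p = 0.125). With library weights in limma it was -0.74 (adjusted p = 0.0348), and without mfn2-/- replicate 4 it was -0.64 (adjusted p = 0.159). Itga3, the alpha 3 chain, had the 1 positive value. It held 0, 68.4, 40.8 and 38.5 normalized reads in the wild type and 88.7, 47.4, 78.1 and 44.0 in mfn2-/- libraries. The ranges overlapped and the difference of 1.77 (SE 1.20, limma adjusted p = 0.395), 0.70 with and 2.84 without Y-linked reads, was 0.37 without wild-type replicate 1, the library with no read. Itga7, the alpha 7 chain that is used to sort muscle stem cells, was more abundant than either. It held 1988, 1552, 848 and 607 normalized reads in the wild type and 497, 638, 727 and 621 in mfn2-/- libraries, with overlap. Wild-type replicates 1 and 2, without Y-linked reads, were the high ones, and the difference of -0.87 did not pass the test (limma adjusted p = 0.110). Itga7 was called lower under 4 of 21 alternatives. These were DESeq2 (adjusted p = 0.0275), Y-linked reads as a term in limma (0.0332), quantile normalization (0.0465) and the fit without wild-type replicate 4 (0.0296).

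Of the alpha chains of RGD-binding receptors, neither Itgav nor Itga5 was called. Itgav, the alpha v chain, held 732, 684, 831 and 906 normalized reads in the wild type and 629, 612, 544 and 439.8 in mfn2-/- libraries. All mfn2-/- libraries were below all wild-type libraries, by a small margin. The difference of -0.51 (SE 0.20), -0.48 with and -0.53 without Y-linked reads, did not pass the test (limma adjusted p = 0.129), and it did with library weights (-0.48, adjusted p = 0.0248). Itgav shares 634 exon bases with Gm13684 on the opposite strand, and the strand setting of the counting is not given in the sources used here. Itga5, the alpha 5 chain of the fibronectin receptor, held 771, 711, 315 and 402 normalized reads in the wild type and 414, 351, 433 and 792 in mfn2-/- libraries. Both groups spanned the same range, and the difference was -0.12 (SE 0.33, limma adjusted p = 0.856), with opposite signs in libraries with (0.10) and without (-0.34) Y-linked reads. That contrast was not tested. Library weights, which gave mfn2-/- replicate 4 a weight of 0.167, called 6 of the 10 genes lower beside 13.9% of all genes.

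Itgbl1 had the largest change of the 10 genes. It held 873, 903, 1401 and 1394 normalized reads in the wild type and 15.3, 13.4, 0 and 23.8 in mfn2-/- libraries. The means were 1143 ± 295 and 13.2 ± 9.86 (SD, n = 4 each), with a change of -6.99 on the log2 scale (SE 0.82, limma adjusted p = 0.000135) that was called under 21 of 21 alternatives. It was -6.51 among libraries with Y-linked reads and -7.48 among those without, and -5.95 (limma adjusted p = 9.18e-07) without mfn2-/- replicate 3, the library at 0.

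Genes of connective tissue cells moved in the same direction as Itgb1, Itgb5, Itga11 and Itgbl1. Over all genes limma called 6.36% lower and 3.99% higher. Of 13 listed markers of fibroadipogenic progenitors, the connective tissue cells that lie between fibers, 11 were called lower, and the list's share of normalized reads was 4.75% to 6.37% in the wild type and 0.128% to 0.239% in mfn2-/- libraries. Of 9 tenocyte markers 9 were called lower, at 0.904% to 1.5% and 0.00736% to 0.010%. Their part in the changes of Itgb1, Itgb5, Itga11 and Itgbl1 was not tested. Of 8 muscle stem cell markers 3 were called higher, Sdc4, Des and Myod1, and the list took up 0.184% to 0.259% and 0.583% to 0.915%. Sdc4 alone averaged 4271 and 17473 normalized reads and is also among the membrane partners below. Pax7, Myf5, Cdh15, Megf10 and Chrna1 were not called, with log2 changes of -0.37 to 0.43. Endothelial markers had 0 of 9 called and ranges of 0.0233% to 0.0440% and 0.0345% to 0.0530%. Of 7 tested mural cell markers Abcc9 was called higher and Pdgfrb and Cspg4 lower (0.0907% to 0.124% and 0.0604% to 0.0961%), and of 4 tested glial markers Ngfr was called lower. Leukocyte markers, 0 of 4 tested called, made up at most 0.00319% and 0.00356% of normalized reads, and the leukocyte beta 2 chain Itgb2 was at 1.04 to 4.55 normalized reads in the wild type and 0 to 40.3 in mfn2-/- libraries. Platelet genes, of interest because platelets carry beta 3, were at 0 in every wild-type library and at most 10.3 in the others. These lists were chosen with earlier results of the same libraries known and share genes with the ligand lists below.

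**Figure D2:**
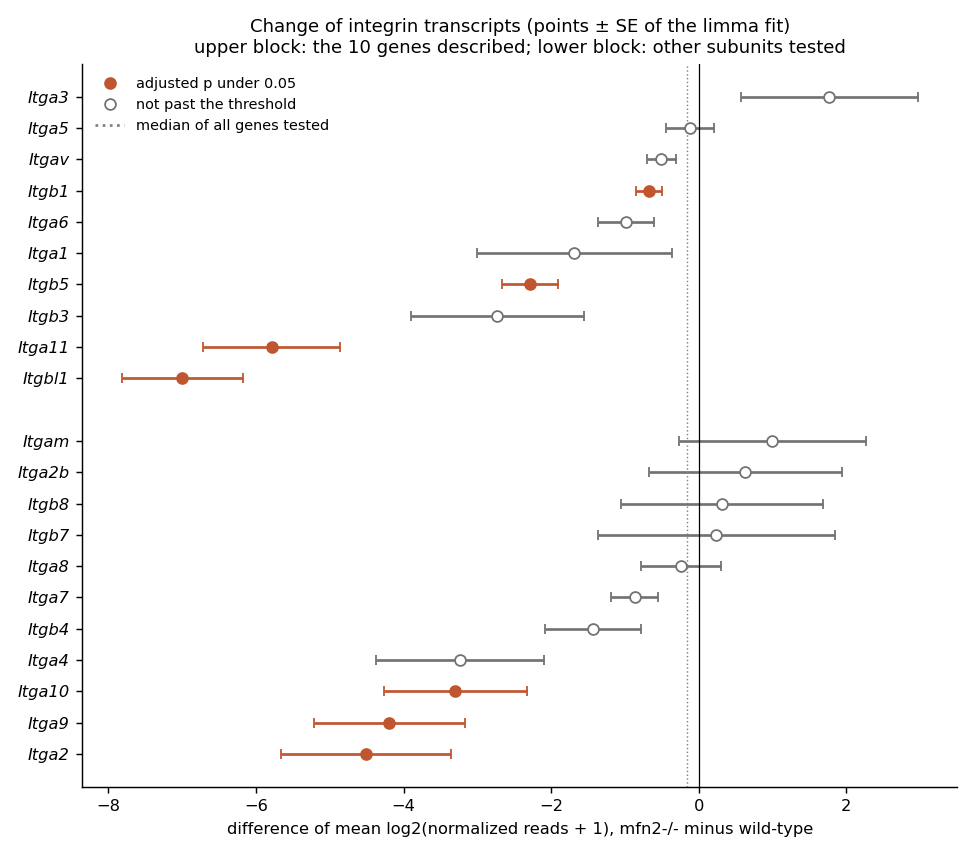
Log2 change of each integrin gene (mfn2-/- minus wild type on log2 of normalized reads + 1, horizontal axis) with its SE from the limma fit, filled where the adjusted p is under 0.05. The 10 genes described are in the upper block with 4 filled points, and the other 11 subunits tested are in the lower block with 3, all on the negative side.

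Levels of different genes were compared as normalized reads per kb of exon. In the wild type Itgb1 stood highest at 831, followed by Itgbl1 at 270.3, Itga5 at 111.5, Itgb5 at 93.2, Itgav at 73.4, Itga11 at 54.0, Itga6 at 24.4, Itgb3 at 8.76, Itga1 at 6.63 and Itga3 at 6.47. The neighbors Itga5 and Itgb5, Itgb5 and Itgav, Itgav and Itga11, Itgb3 and Itga1, and Itga1 and Itga3 overlapped between libraries. In mfn2-/- ASCs the order per kb was Itgb1 at 522, Itga5 at 101, Itgav at 51.8, Itgb5 at 20.2, Itga6 at 13.1, Itga3 at 11.3, Itga1 at 3.71, Itgbl1 at 3.11, Itgb3 at 1.72 and Itga11 at 1.48. Here Itga6 overlapped with Itgb5 above it and Itga3 below it, and the last 4 overlapped from each to the next. Itgb1 led by a wide margin in both groups, while Itgbl1 went from second place to eighth.

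Relative to Itgb1 in the same library, per kb, Itgb5 was at 11.2% ± 1.29 in the wild type and 3.74% ± 1.22 (SD, n = 4 each) in mfn2-/- ASCs (exact permutation p = 0.0286, adjusted p = 0.114 over 8 ratios). Itga11 was at 6.50% ± 0.93 and 0.313% ± 0.41, with the same exact permutation p values. Both ratios were separate between the groups, but with 4 against 4 libraries the adjusted p could not reach 0.05 unless more ratios were separate. Itgav was at 8.83% ± 0.53 and 10.2% ± 2.61 (exact permutation p = 0.4), and Itga5 at 13.8% ± 6.50 and 19.3% ± 7.27 (exact permutation p = 0.314). Of all beta chains in the table per kb, Itgb1 made up 86.4% ± 2.10 in the wild type and 92.3% ± 4.50 in mfn2-/- libraries, and Itgb5 9.67% ± 0.97 and 3.43% ± 1.09. Of all alpha chains, Itga11 made up 10.4% and 0.50%, Itga5 20.2% and 32.6%, Itga7 27.7% and 25.3%, and Itgav 14.1% and 17.2%. A larger share is not a larger level here, since the alpha chains summed to 535 ± 79.9 and 304 ± 22.8 normalized reads per kb and the beta chains to 960.4 ± 77.9 and 568 ± 93.3.

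**Figure D3:**
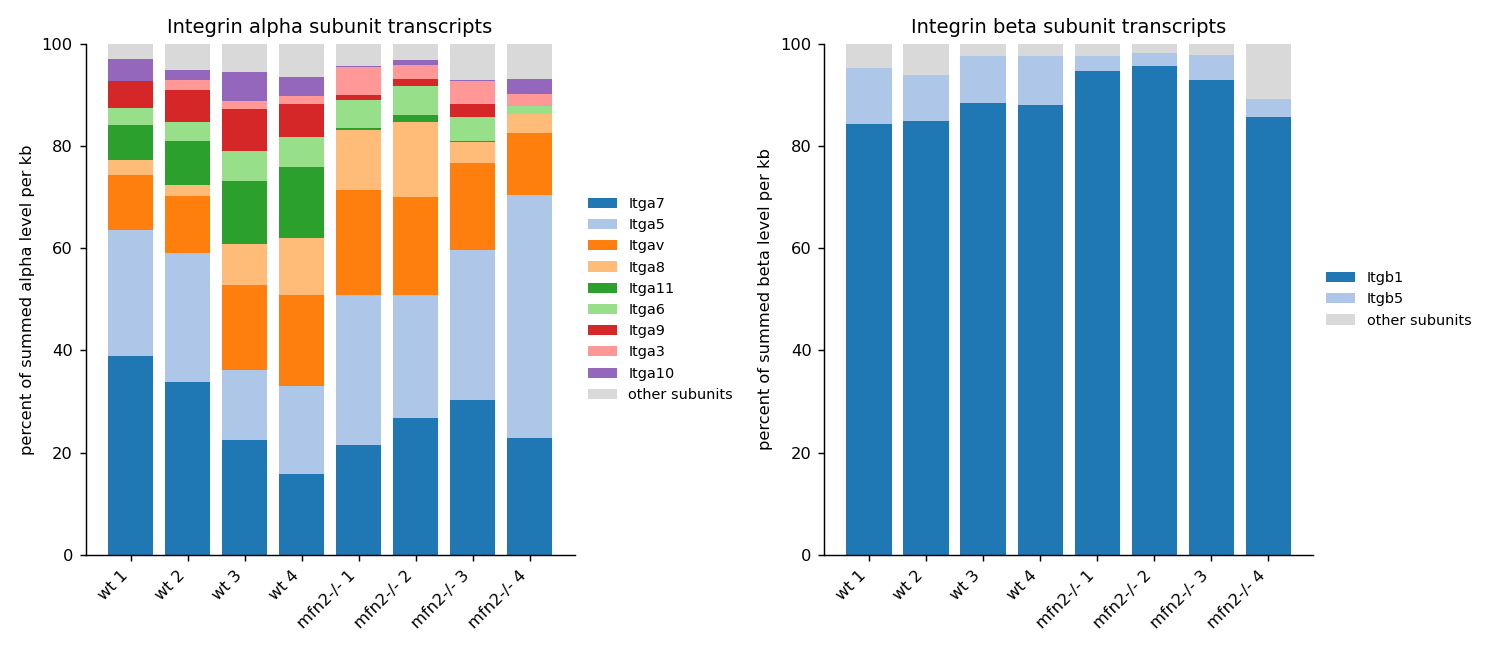
Share of each chain (vertical axis, percent of the summed normalized reads per kb) among the alpha chains (left) and among the beta chains (right), with 1 stacked column for each wild-type (wt) and mfn2-/- library. Itga11 takes on average 10.4% of the wild-type alpha sum and 0.50% of the mfn2-/- sum, and Itgb1 makes up most of the beta sum in both groups.

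The rest of the integrin family numbered 17 subunit genes in the table, of which 11 were tested. Of these limma called 3 lower and 0 higher, beside 6.36% and 3.99% of all genes. Their median log2 change was -0.87, beside -0.16 over all genes tested. Besides Itga2 and Itga10, the third was Itga9, whose alpha 9 chain pairs with beta 1 and binds tenascin C. It held 255, 268, 292 and 240.4 normalized reads in the wild type and 22.7, 30.8, 56.7 and 0 in mfn2-/- libraries, without overlap. Its log2 change was -4.19 (limma adjusted p = 0.0197), and -2.91 (adjusted p = 0.000364) without mfn2-/- replicate 4, the library at 0. It was called under 16 of 21 alternatives and lost without wild-type replicate 2 (limma adjusted p = 0.0549), 3 (0.0621) or 4 (0.0536). The call was also lost in limma with a pseudocount of 0.1 (adjusted p = 0.0839) or no intensity trend (0.0879). Itga4, Itgb4 and Itga8 had differences of -3.24, -1.43 and -0.24 with limma adjusted p of 0.0925, 0.191 and 0.822. Of these, Itga4 was called lower by DESeq2 (adjusted p = 0.0151) and in limma with library weights (0.00462) or a pseudocount of 10 (0.0447), and Itgb4 with library weights (0.00310) and without mfn2-/- replicate 4 (-2.01, adjusted p = 0.0253). Itgam, Itga2b, Itgb8 and Itgb7 were scarce and had positive differences of 0.24 to 1.00 with limma adjusted p of 0.671 or more. For Itga2b and Itgb8 the sign depended on the scale. Their mean normalized reads were 30.3 and 33.9 in the wild type and 23.5 and 30.9 in mfn2-/- libraries, and edgeR gave -0.34 and -0.14. The sign of Itgb7 was not stable either, at -0.42 in limma with library weights and -0.41 without wild-type replicate 1 or 3. Without mfn2-/- replicate 4, 4 of 10 tested were called lower, beside 7.13% of all genes.

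Of 41 tested genes for proteins that link integrins to the cytoskeleton or signal from them, 1 was called higher and 2 lower by limma, beside 10.4% of all genes called, and their median log2 change was -0.03. Rap1b, a small GTPase that promotes integrin activation, rose by 0.89 (limma adjusted p = 0.0113), and Tns3 (tensin 3) fell by 1.77 on the log2 scale (limma adjusted p = 0.000861). The most abundant, Flnc, Flna and Actn4, which bind actin, had differences of 0.33, -0.24 and 0.34 and limma adjusted p of 0.270 or more. Of 13 membrane partners 3 were called higher and 2 lower, beside 3.99% and 6.36% of all genes. Sdc4, a heparan sulfate proteoglycan of muscle stem cells, rose from 4271 to 17473 normalized reads (log2 change 2.08, limma adjusted p = 0.000317). Plaur, the urokinase receptor, and the tetraspanin Cd82 rose by 2.80 and 1.07 on that scale (limma adjusted p = 0.00112 and 0.00412). The partners that fell were Sdc3, by 2.03 (limma adjusted p = 0.000603), and the tetraspanin Cd81, named after its value was seen, by 1.55 (limma adjusted p = 0.0210). The call of Cd81 was lost without mfn2-/- replicate 3 (limma adjusted p = 0.0614) or wild-type replicate 2 (0.0590) or 3 (0.0693). It was also lost with edgeR (adjusted p = 0.0601) and in limma without an intensity trend (adjusted p = 0.115). Caveolin Cav1 had a difference of -0.17 (limma adjusted p = 0.681).

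Genes of integrin ligands, the matrix proteins outside the cell, were called lower in each of 3 lists, where 6.36% of all genes were. Of 10 collagen genes 10 were called lower, with a median log2 change of -3.84, among them Col1a1 (-8.36), Col1a2 (-7.79), Col3a1 (-4.44) and Col6a3 (-5.84). Of 9 tested laminin chains 5 were called lower, with a median of -1.38, led in size by Lama4 (-3.37) and Lamb1 (-2.51), while Lamc1, the most abundant, changed by -1.72. Lama2 and Lamb2, the next in abundance, changed by -1.63 and -1.38. Of 18 tested RGD-type and related matrix ligands 11 were called lower and 0 higher, with a median of -2.01. Fbn2 had the largest of these changes, at -8.09. Fn1, the fibronectin bound by alpha 5 beta 1, changed by -4.87, Postn by -5.43, Thbs1 by -1.15 and Cyr61 by -1.17. The test of receptors against ligands was not made, and these lists overlap with the connective tissue markers above.

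**Figure D4:**
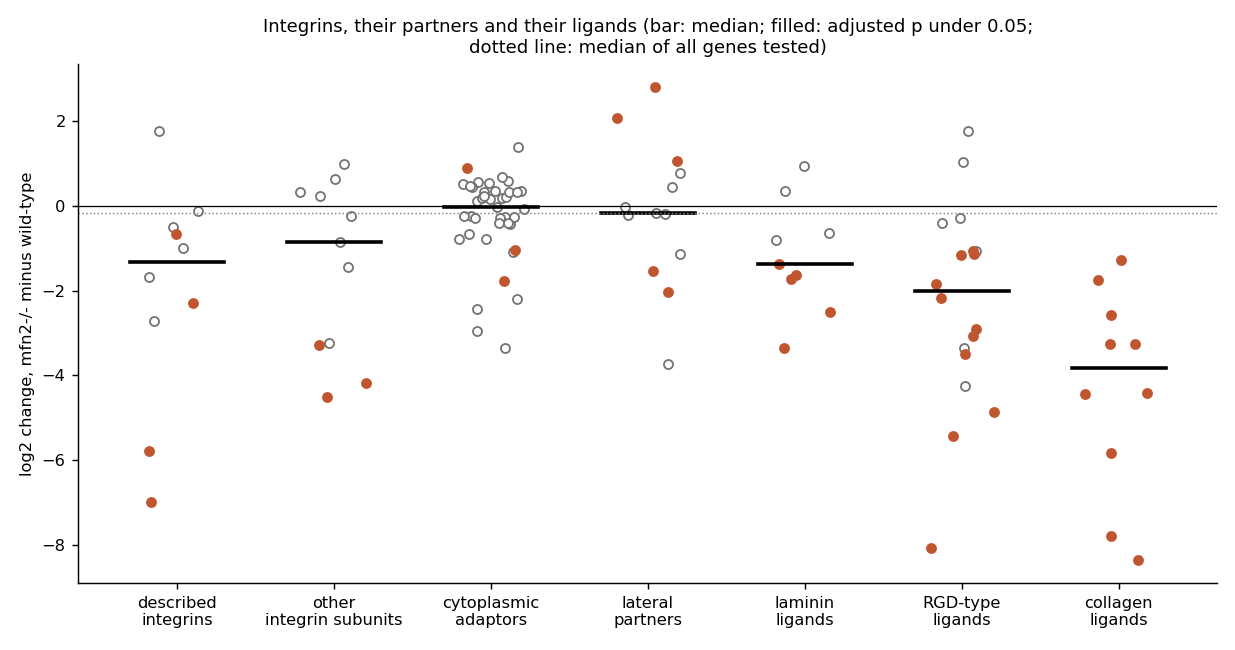
Log2 change (vertical axis, mfn2-/- minus wild type) of every tested gene of the integrin, adaptor, partner and ligand lists, 1 point per gene, filled where called by limma, with a solid bar at the list's median and a dotted line at the median of all genes tested (-0.16). The collagen list lies wholly below 0 with a median of -3.84, and the adaptor list is centered at -0.03.

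Over the 8 libraries, the pattern most like that of Itgb1 among the 5585 genes with a mean of at least 100 was that of Itgb5 (Pearson r = 0.985 on the log2 scale), followed by Cdh2 (0.979), Ntn1 (0.975), Txndc5 (0.972) and Lox (0.969). The points share the group difference and the library depth. With group means removed, r was 0.91 for Itgb5, 0.92 for Cdh2, 0.84 for Ntn1, 0.83 for Txndc5 and 0.82 for Lox. These are descriptions of the same libraries, and genes were ranked by them.

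Promoters are shown for Itgb1, Itgb5 and Itga11, the receptor chains that fell, to set the sequences before their start sites side by side. Each is the 250 bases upstream of the RefSeq start in GRCm38.p6, on the plus strand, 5′ to 3′, and RefSeq entries were at hand for 8 of the 10 genes. Capitals mark matches on either strand to GGGCGG, the core of a GC box, and to ACGTG and GCGTG, which are both forms of the hypoxia response core. These motifs can overlap one another. Other motifs were searched as well. They are not marked and are given below. The Itgb1 window lies at chr8:128685404-128685653, that of Itgb5 at chr16:33829415-33829664 and that of Itga11 at chr9:62677605-62677854.
Itgb1: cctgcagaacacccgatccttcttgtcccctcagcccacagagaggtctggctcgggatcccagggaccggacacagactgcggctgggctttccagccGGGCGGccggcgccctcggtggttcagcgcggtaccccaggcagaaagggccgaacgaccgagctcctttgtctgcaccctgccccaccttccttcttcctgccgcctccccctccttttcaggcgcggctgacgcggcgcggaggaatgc
Itgb5: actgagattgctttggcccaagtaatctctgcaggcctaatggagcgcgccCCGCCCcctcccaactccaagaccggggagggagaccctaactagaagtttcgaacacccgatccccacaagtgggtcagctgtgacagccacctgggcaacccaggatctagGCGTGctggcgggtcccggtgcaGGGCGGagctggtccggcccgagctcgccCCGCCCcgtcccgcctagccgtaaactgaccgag
Itga11: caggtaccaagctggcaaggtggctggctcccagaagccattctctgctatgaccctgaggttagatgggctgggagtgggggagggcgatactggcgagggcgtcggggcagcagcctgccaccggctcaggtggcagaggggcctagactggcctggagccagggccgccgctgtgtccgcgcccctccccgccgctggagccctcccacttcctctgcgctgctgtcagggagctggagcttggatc

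The Itgb5 window held 3 GGGCGG matches and 1 GCGTG match, the Itgb1 window 1 GGGCGG match, and the Itga11 window none of these letters. Of 32851 mouse promoter windows of the same length 32.7% held GGGCGG, 16.6% ACGTG and 28.2% GCGTG. All 3 windows were rich in G and C, at 68.0%, 65.2% and 68.4% for Itgb1, Itgb5 and Itga11 beside a median of 52.4%. They held 21, 18 and 12 CpG dinucleotides beside a median of 6. This was not particular to the genes that fell. Of the genes not called, Itgav, Itga1 and Itga5 were at 64.4%, 57.6% and 55.6%, and the entries of Itga3 at 67.6% and 50.8%. Itgbl1, which was called lower, was at 42.4% with 5 CpG dinucleotides. The gene bodies lie, in GRCm38 with GENCODE M21, at chr8:128685654-128733200 for Itgb1 (plus strand), chr16:33829665-33949338 for Itgb5 (plus), chr9:62677826-62783982 for Itga11 (plus) and chr14:123659971-123975618 for Itgbl1 (plus). By that annotation the last bases of the Itga11 window lie inside the gene's first exon. The Itgbl1 window, at chr14:123659890-123660139, also runs past the annotated gene start. Of the Itga3 windows, that at 67.6% runs past the annotated gene start and that at 50.8% lies wholly inside the gene. The G and C content of these windows is thus not of upstream sequence alone. A match is a description of letters and not a site of binding.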

How the data were processed

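Libraries were prepared from total RNA of the sorted cells with a stranded low-input kit (SMARTer pico). Per the labels, the authors used Trim Galore, HISAT2, featureCounts and DESeq2 with the mm9 build, and the annotation and strand setting are not given in the sources used here. The deposited table gives a signal for each gene symbol, which is a linear normalized count, in 1 column per library. In every column 100% of values were whole multiples (tolerance 0.01) of 1 step, so whole reads were recovered for depth and for edgeR and DESeq2. Values at 3 reads or fewer are at the floor, and weak genes are least precise in wild-type replicate 1 and mfn2-/- replicate 4. The table holds 24 symbols turned into dates, which stayed in the tests. Positions and exon lengths are from GENCODE M21 (GRCm38) and promoters from RefSeq GRCm38.p6.

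Groups came from the titles. Genes with a mean of at least 10 were log2-transformed after adding 1 and compared without covariates in limma 3.58.1 (R 4.3.3), fitting the prior variance as a trend of intensity. P-values were two-sided and adjusted by Benjamini-Hochberg over all genes (threshold 0.05). Changes of low genes on this scale depend on the pseudocount. Single values had exact permutation tests (70 arrangements). Alternatives were other pseudocounts, filters and scalings, no trend, library weights, terms for replicate number and for Y-linked reads, edgeR 4.0.16, DESeq2 1.42.0 and leaving out each library. Fits were tested on simulated data. Besides the 10 genes and Mfn2, the naming rule took other subunits with a mean of at least 10, the 3 most abundant and up to 3 most changed called genes of each list, and the 5 genes most like Itgb1. One called adaptor gene is counted but not reported here. The members and lists were chosen with earlier results of these data known.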

Additional observations from a re-analysis of the deposited data

Results flagged for a closer look

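In 42 groups of 4 libraries (wild-type and mfn2-/- values of the integrin genes tested), 2 held a library far from the other 3 by Dixon's ratio at its 95% limit, where chance gives about 2.1. Itga4 stood at 15.9 normalized reads in wild-type replicate 1 and at 60.1 to 67.0 in the other wild-type libraries. Itgb7 stood at 64.1 normalized reads in mfn2-/- replicate 4 and at 0 to 5.53 in the other mfn2-/- libraries. Limma called neither gene, DESeq2 called Itga4 (adjusted p = 0.0151), and wild-type replicate 1 and mfn2-/- replicate 4 were the shallowest libraries, with 1880464 and 2269009 reads.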

How the results depend on the processing

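Under 21 alternatives, 8 of which left out a library, 3 to 6 of the 10 integrin genes were called, and leaving out 1 library gave 3 to 4. Of 209 values, 196 kept their direction and side of the threshold, 7 were no longer called (all of Itgb1), 2 became called (Itga6 and Itgav with library weights) and 4 reversed. The reversed values were all of Itga5, at 0.085 with upper quartile scaling and, with 1 library left out, 0.075 (wild-type replicate 1), 0.036 (wild-type replicate 2) and 0.022 (mfn2-/- replicate 2), in a range of -0.37 to 0.075. The cause was not tested. Over all genes, 1217 were called, 633 without an intensity trend and 3037 with library weights, and 671 to 1331 when 1 library was left out. Omitting wild-type replicate 3 gave the lowest of these counts, wild-type replicate 4 the next (749) and mfn2-/- replicate 4 the highest. Itgb3 had no value with a minimum mean of 50. Groups share replicate numbers, but same-numbered libraries did not deviate together (r = -0.03, -0.05, 0.04 and -0.11, with 1 of 8 libraries closest to its own number), so the numbers were not taken as pairs. With the replicate block 1043 genes and 4 of the 10 were called. Itga1, Itga3, Itgb3, Itga11 and Itgbl1 were each at 0 reads in 1 library, and precision is lowest for such weak genes in the shallowest libraries.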
